A study of Bos taurus with 6 samples.

Results

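The windows described here lie in the introns of very long genes. They are the 3 kb windows of chromosomes 1 to 29 whose gene label covers at least 100 windows (300 kb) of a chromosome and beside which the files print no coding sequence, with the first window on the strand of the gene left out. The rule gave 76655 windows of 501 genes, out of 902984 windows in all, 335024 labelled windows on these chromosomes and 24038 labelled genes. A long gene covered a median of 141 windows and at most 732. No measured value was used to choose them. Untranslated exons also carry no coding sequence, so some of these windows can hold such exons as well as intron. Their number was not measured. In 20 genes the labelled windows were spread over more than 1.1 times their own length, and labels such as GIMAP7 and CD1A stand for gene families, so that a label need not be a single gene.

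MIRA-Seq was performed on DNA from dermal fibroblast cultures of 3 Holstein heifers. Skin was taken from each animal at 5 and again at 16 months of age, and each culture gave 1 library (n = 3 per age). All 6 cultures were at passage 5 and none had been exposed to LPS. The study's methods state that these heifers were picked as mid-level responders to LPS from a larger group, so that the animals are not a random sample of heifers.

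A gene of this size consists almost wholly of intron, and its exons are short islands far apart. Many such genes in mammals encode neuronal adhesion molecules, ion channels and signalling proteins, and several of them span common fragile sites. MIRA pulls down fragments with methylated CpG sites, so the read number of a window rises with the density of CpG sites as well as with their methylation, and these cannot be told apart here because the CpG content of the windows was not measured. Introns far from exons are typically poor in CpG sites, and most of the CpG sites they have are methylated in differentiated cells.

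The libraries held 19.9 to 43.6 M counted reads, of which the intronic windows of long genes took 4.44 to 6.19% although they made up 9.16% of the windows of chromosomes 1 to 29. A median window held 1 to 6 reads, and 4.97 to 32.9% of these windows had none in a given library. Levels are given as counts per M (CPM) over the counts of the tested windows, scaled with the TMM factors of the window test. The level of a gene is the mean over its windows, and the level of a library is the median over genes.

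Intronic windows of long genes carried little signal, less than the coding windows of the same genes and less than the introns of shorter genes. The intronic level was 0.136 CPM in the 5-month culture of animal 1, 0.294 in that of animal 2 and 0.318 in that of animal 3. It was 0.236 CPM in the 16-month culture of animal 1, 0.159 in that of animal 2 and 0.470 in that of animal 3. With the TMM factors of the window test the highest library was thus 3.45 times the lowest, against 2.09 times with CPM over all windows. The ranges of the ages overlapped.

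In the coding windows of the same genes the level was 0.310, 0.447 and 0.498 CPM at 5 months in animals 1 to 3 and 0.402, 0.294 and 0.677 CPM at 16 months. It was above the intronic level in all 6 libraries. The log2 ratio of introns to coding windows was -0.77 ± 0.24 (SD, n = 6 libraries; exact two-sided sign-flip test p = 0.0312, Benjamini-Hochberg adjusted over 6 contrasts p = 0.0375). Introns of genes of 10 to 99 windows stood at 0.184 to 0.593 CPM, and the introns of long genes were lower than these in every library, with a log2 ratio of -0.37 ± 0.07 (SD, n = 6; exact sign-flip p = 0.0312, adjusted p = 0.0375). The median over the 29 chromosomes of the same ratio within a chromosome was -0.16 to -0.39 per library, a comparison added after the data were seen. With the plain mean over genes in place of the median, the ratio to coding windows was -0.35, with 2 of 6 libraries on the other side (exact sign-flip p = 0.125), and that to shorter genes was -0.20, again with 2 of 6 on the other side (exact sign-flip p = 0.1875). With the median window of each gene they were -0.62 and -0.58, lower in all 6 libraries or tied, but past no threshold after adjustment (exact sign-flip test, adjusted p = 0.0938 for both). Over the 3 animals rather than the 6 libraries the smallest p possible is 0.25, which both contrasts reached.

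A measure that counts single windows rather than genes gave the same order, with each gene weighing in by its number of windows. The share of windows at or above 1 CPM, here over all window counts, was 6.21 to 10.04% in introns of long genes, 16.6 to 22.7% in their coding windows and 10.1 to 16.2% in introns of shorter genes. Each library kept this order.

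The first window of the gene, which holds the start of the label, had no fixed place in the order. By the median over genes it was below the introns (0.0920 to 0.254 CPM), but a single window is compared there with the mean of many, and such means are raised by a few high windows. With the median window of each gene in place of the mean the log2 ratio of introns to first window turned to -0.05. The share at or above 1 CPM was 9.18 to 11.98% in first windows, above the introns of the same library in all 6. No direction is therefore given for first windows.

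Unlabelled windows within 50 windows (150 kb) of either end of the gene, its flanks, were at much the same level as the introns. The flanks stood at 0.141 to 0.466 CPM, and the log2 ratio of introns to flanks was -0.02 ± 0.04 (SD, n = 6; exact sign-flip p = 0.406). Against the upstream flank alone the ratio was 0.16, and the mean over genes that leaves out the 1% of windows richest in counts also gave 0.16, both of them chosen after the data were seen. Both were positive in all 6 libraries (exact sign-flip p = 0.0312). The median over genes without that 1% gave -0.074 and genes of at least 150 windows gave -0.12, negative in all 6 (exact sign-flip p = 0.0312). No direction is therefore given for flanks. Across the 501 genes the median window of the introns and that of the flanks had a Spearman correlation of 0.813, as a description, since both come from the same libraries and the same stretch of the chromosome.

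**Figure D1:**
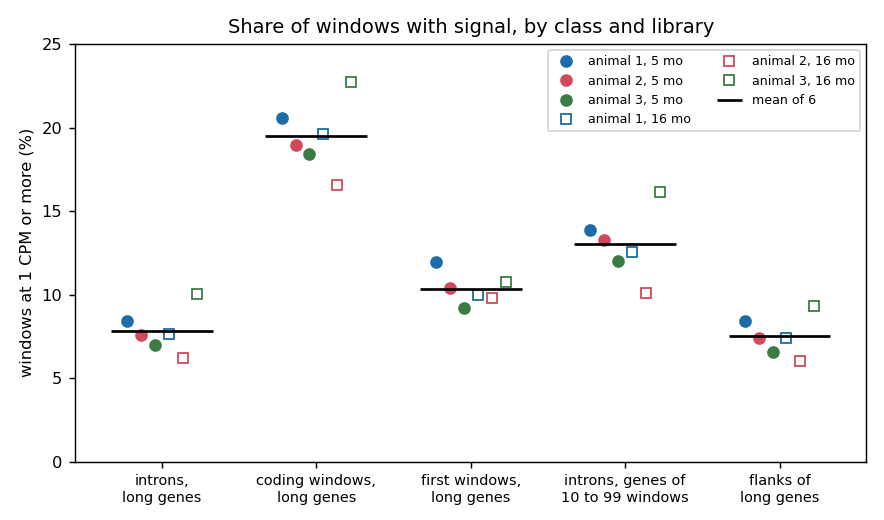
Share of 3 kb windows at or above 1 CPM (vertical axis, percent, over all window counts) in 5 classes of windows. Each symbol is 1 library, filled circles being 5-month and open squares 16-month cultures, and the bar is the mean of 6 libraries. Coding windows of long genes lie at 16.6 to 22.7% and introns of the same genes at 6.21 to 10.04%, with introns of shorter genes at 10.1 to 16.2%.

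By the median over genes, the intronic signal along the gene was lowest in the middle and highest at the 3′ end. Each gene was cut into 10 equal bins from its first to its last window on its strand. Relative to the mean of the 10 bins in the same library, the first bin was at 1.01 ± 0.02, bins 5 and 6 at 0.95 ± 0.02 and 0.94 ± 0.02, bin 9 at 1.07 ± 0.02 and the last bin at 1.15 ± 0.04 (SD, n = 6). In CPM the last bin was at 0.133, 0.305 and 0.316 at 5 months in animals 1 to 3 and at 0.245, 0.143 and 0.483 at 16 months. The first bin was at 0.107, 0.278 and 0.286 CPM and at 0.213, 0.128 and 0.439 CPM in the same order. The last bin was the higher of these in all 6 libraries, whichever the age. In genes of 30 to 99 windows the first bin was at 0.92 ± 0.04 and the last at 1.07 ± 0.04 of the mean of the bins (SD, n = 6). A rise from first to last bin is thus not particular to the long genes.

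The log2 ratio of last to first bin was 0.18 ± 0.07, and that of the middle to both ends was -0.30 ± 0.08 (SD, n = 6; exact two-sided sign-flip p = 0.0312 and adjusted p = 0.0375 for both). Over the 3 animals rather than the 6 libraries the sign-flip p was 0.25 for both, the smallest possible. For the second ratio the windows of both end bins were pooled in each gene, so a gene high at either end raised the ends. In the 5-month culture of animal 1 the pooled ends were at 0.147 CPM, against 0.107 in the first and 0.133 in the last bin. The ratio is therefore not the dip below either end alone. With genes of at least 150 windows alone the ratio of last to first bin was 0.053 and no longer passed the test (exact sign-flip p = 0.3125), and that of the middle to both ends was -0.26 and did. With the plain mean over genes the middle was no lower than the ends, at a log2 ratio of 0.061 and with 3 of 6 libraries on either side (exact sign-flip p = 0.25), while the last bin was above the first in all 6 (0.42, exact sign-flip p = 0.0312, adjusted p = 0.1875). With the median window the ratios were -0.21 for the middle and 0.28 for the last bin (exact sign-flip test, adjusted p = 0.0938 for both). Of 500 genes with windows in both bins, 207 had more signal in the last than in the first bin in every library, 112 had less in every library and the others were mixed. The last bin was above the middle in every library in 202 of 499 genes and below it in 106. For the first bin these numbers were 138 and 154 of 500 genes. By the mean of 6 libraries the first bin was above the middle in 237 genes (47.4%), so most genes had no clear dip below the 5′ end. The share of windows that passed the filter for testing was 7.32% in the first bin and 11.2% in the last.

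The rise at the 3′ end reached over many windows. After the 1% of windows richest in counts was left out, the mean over windows 1, 2 and 3 windows before the last was 1.69, 1.74 and 1.79 times the mean of all intronic windows of long genes. These came from 249, 334 and 334 genes, since the others had coding sequence or no such window left there. Untranslated exons in these windows were not counted. At 6 to 10 windows before the last it was 1.43 ± 0.08 times, at 11 to 20 windows 1.29 ± 0.06 times and at 21 to 40 windows 1.14 ± 0.02 times (SD, n = 6), in each case above 1 in all 6 libraries. Near the 5′ end the values were closer to 1. The first window was at 1.31 ± 0.25 times the mean, but the 2 windows after it were at 0.96 ± 0.06 and 0.93 ± 0.07 times, and at 6 to 10, 11 to 20 and 21 to 40 windows the values were 1.08 ± 0.01, 1.06 ± 0.01 and 1.04 ± 0.02, these also above 1 in all 6 libraries. At 6 to 40 windows from either end the level was thus above the mean of all intronic windows, but not in the 2 windows after the first. A value above 1 is therefore not in itself particular to the 3′ end. The mean of all windows weighs genes by their number of windows, so the longest genes count more in it than near an end.

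Distance from coding sequence gave a further gradient. Windows next to a coding window were at 1.17 ± 0.03 times the mean, those 3 to 5 windows away at 1.05 ± 0.02 times and those more than 20 windows away at 0.83 ± 0.02 times (SD, n = 6), the last being below 1 in all 6 libraries. These distances are not independent of those from the gene ends, since the ends of a gene carry exons. Windows were also pooled over genes, 501 of them next to coding sequence and 353 at more than 20 windows. Longer genes can hold more far windows, and their level was lower (0.193 CPM at 300 or more windows, 0.316 CPM at 100 to 149). How much of the gradient lies within genes was not tested.

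**Figure D2:**
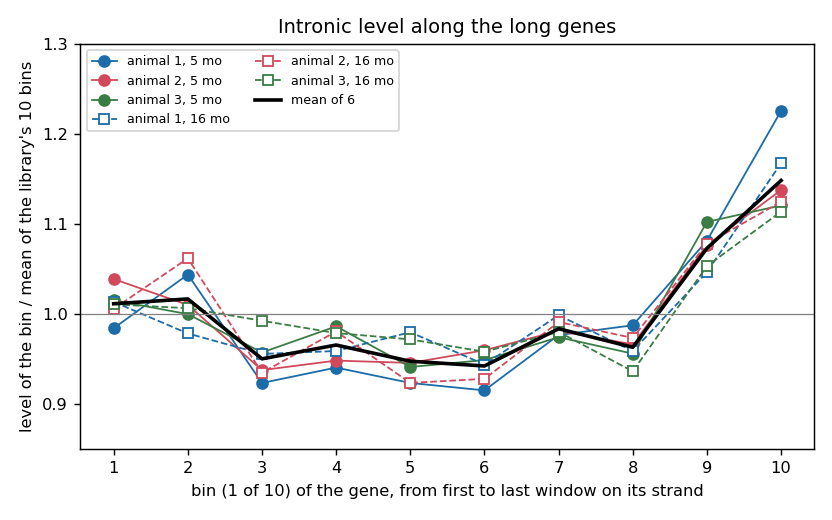
Intronic level of each of 10 bins of the gene (horizontal axis, first to last window on the strand) divided by the mean of the 10 bins of the same library (vertical axis). Thin lines are the 6 libraries, solid for 5 and dashed for 16 months, and the thick line is their mean, which falls to 0.94 in bin 6 and rises to 1.15 in the last.

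The rise at the 3′ end was large in some of the longest genes and missing in others. FHIT, which encodes a dinucleoside triphosphate hydrolase and spans a common fragile site (511 windows, chr22:40601667-42134666 of UMD v3.1), had a mean over libraries of 0.216 CPM in its first bin, 0.185 in its middle and 0.759 in its last bin. CNTNAP2, a neurexin-like adhesion protein of axons (547 windows, chr4:110896205-112537204), went from 0.184 CPM in the first bin through 0.152 in the middle to 0.758 in the last. ZBTB20, a zinc finger repressor, went from 0.121 to 0.579 CPM. In contrast PDE4D, a cAMP phosphodiesterase, was at 0.260 CPM in its first and 0.172 CPM in its last bin, and CTNNA2, a neuronal catenin, was at 0.171 and 0.104 CPM.

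The 10 longest genes had levels between 0.101 and 0.311 CPM, with single bins such as those just named reaching higher. In PRKG1, a cGMP dependent kinase and one of them, the middle was at 0.645 CPM. LRP1B, a large receptor of the LDL receptor family and the longest label (732 windows, chr2:54813734-57012933), was at 0.0419, 0.112 and 0.104 CPM at 5 months in animals 1 to 3 and at 0.0903, 0.0650 and 0.190 CPM at 16 months. CTNNA3, a catenin of 626 windows, stood at 0.120 ± 0.060 CPM (SD, n = 6), and none of its intronic windows passed the filter for testing. By length, the 292 genes of 100 to 149 windows were at 0.316 CPM, the 97 of 150 to 199 at 0.224, the 71 of 200 to 299 at 0.236 and the 41 of 300 or more at 0.193, as means of 6 libraries. The shortest of these classes was the highest and the longest the lowest in each library, and the order of the classes between them was not the same as that of their lengths. Across the 501 genes the Spearman correlation of length and level was -0.21.

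The lowest level of all was that of KLHL1, a kelch protein of neurons, at 0.0805 ± 0.0464 CPM, followed by TLL1, an astacin metalloprotease, NCAM2, a neural cell adhesion molecule, CNTN6, a contactin, and ZNF804A, at 0.0968 to 0.0986 CPM. In KLHL1 the 6 values ran from 0.0276 CPM in the 5-month culture of animal 1 to 0.162 CPM in the 16-month culture of animal 3, the same order of extremes as in the median gene. The level also differed by chromosome. The median gene was at 0.562, 0.552, 0.546 and 0.544 CPM on chromosomes 19, 27, 18 and 29 and at 0.201, 0.199 and 0.198 CPM on chromosomes 2, 5 and 1.

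Among the 62 genes above 1 CPM, of 501, the signal took a pair of forms. In 33 of them the median intronic window was itself above 1 CPM, so that the signal ran through the gene. In the other 29 the median window was at or below 1 CPM. This group was mixed, since 2 windows held over 50% of the reads in 11 of its genes, up to 96.1%, and under 15% in 16, among them SLIT3, an axon guidance ligand. The remaining 439 genes were at or below 1 CPM and are called low here. These limits were set after the values were seen and serve to describe.

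PTPRN2, a receptor phosphatase of secretory granules on chr4:119521205-119986204, is an example of signal that runs through the gene. It was at 7.96, 8.70 and 7.69 CPM at 5 months in animals 1 to 3 and at 8.96, 10.4 and 6.68 CPM at 16 months, and its median window was at 7.60 CPM. Its flanks were also high, with a median window of 7.21 CPM. WWOX, a short-chain oxidoreductase whose gene covers a fragile site (306 windows, chr18:5282398-6200397), was at 2.46, 2.35 and 2.92 CPM at 5 months and at 2.56, 2.50 and 3.13 CPM at 16 months. The other 10 long genes of the fragile site list lay between 0.101 and 0.491 CPM. DPP6, an accessory subunit of potassium channels, stood at 2.02 ± 0.13 CPM (SD, n = 6) and rose from 0.915 CPM in its first to 2.73 CPM in its last bin. HDAC4, TRAPPC9, PRKCA and SDK1, also of this form, are a histone deacetylase, a trafficking complex subunit, a protein kinase C and a synaptic adhesion molecule, and had 7.44, 6.42, 5.29 and 4.39 CPM. KCNQ1, whose introns lie in an imprinted domain in mammals, was at 5.22 ± 1.07 CPM.

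RNF122 stood far above every other gene. The label, which in the files covers 167 windows of chr27:28448767-28949766, had 61.3, 51.5 and 280 CPM at 5 months in animals 1 to 3 and 60.6, 48.2 and 196 CPM at 16 months. Both libraries of animal 3 were high, at either age, and the other 4 lay close together. Its median window was at 106 CPM, 160 of its windows were among the 1% of windows richest in counts, and it took 15.6 to 46.7% of all reads in the intronic windows of long genes. The 4 coding windows of the label were at 2.17 CPM and the median flanking window at 0.258 CPM, so the signal formed a block within the label. These values are read numbers, and how far they stand for methylation is unknown, because the CpG content, the copy number and the assembly of this stretch were not examined. The cause was not tested.

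ERBB4, ABI3BP and ADAMTS3 had a mean above 1 CPM and a low median window. ERBB4, a receptor tyrosine kinase for neuregulins, was at 5.69 to 9.63 CPM by its mean but at 0.0695 CPM by its median window, and 79.6% of its reads fell in 2 adjoining windows, chr2:100160734-100163733 and chr2:100163734-100166733. The second of these was the highest intronic window of all, with 1015, 1251 and 1035 CPM at 5 months in animals 1 to 3 and 988, 1917 and 997 CPM at 16 months. The windows on the outer side of the pair held 0.0221 CPM or less in either age group, and the highest depth of coverage within it was on average 58.1% of its read number, which shows reads stacked over a short stretch. ABI3BP, which encodes a matrix protein, had a mean of 18.6 ± 3.5 CPM and a median window of 0.152 CPM. ADAMTS3, a procollagen protease, was at 17.9 and 17.7 CPM in animal 3 and at 8.98 to 10.1 CPM in the other 4 libraries. A single window of CNTNAP5 (chr2:77192134-77195133) held 554 ± 149 CPM, with 0.216 CPM or less on either side.

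**Figure D3:**
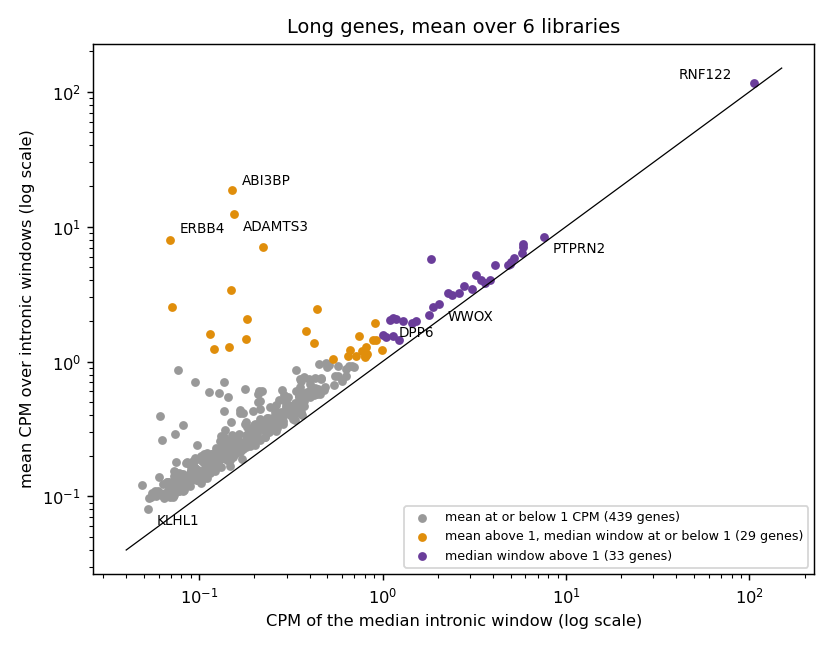
Mean CPM over the intronic windows of a gene (vertical axis, log scale) against the CPM of its median window (horizontal axis, log scale) for 501 long genes, each the mean of 6 libraries, with the line of equal values. PTPRN2 and WWOX lie near the line, and ERBB4, ABI3BP and ADAMTS3 far above it, at median windows of 0.0695 to 0.154 CPM.

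The low genes and the genes with signal throughout did not vary together over the libraries. In the 439 low genes the median level was 0.121, 0.268 and 0.280 CPM at 5 months in animals 1 to 3 and 0.208, 0.141 and 0.424 CPM at 16 months. In the 33 genes with signal throughout it was 3.57, 3.14 and 3.43 CPM and 3.42, 3.43 and 3.60 CPM in the same order. The low genes thus stood at 3.40, 8.54 and 8.17% of the others at 5 months and at 6.10, 4.10 and 11.8% at 16 months, a ratio that no scaling of the libraries changes and that differed 3.46-fold between them. How this divides between both kinds of gene depends on the scaling. The TMM factors rest on all 104658 windows tested, of which 3056 lay in the introns of the 33 genes. With TMM factors the highest library was, within a gene, a median of 3.47 times the lowest in low genes and 1.33 times in the 33. With CPM over all windows and no TMM factor, chosen after the data were seen, these medians were 2.31 and 1.80, and the median level of the 33 genes ran from 2.12 CPM in the 5-month culture of animal 3 to 3.89 CPM in that of animal 1. With TMM factors IGF1R, the receptor of insulin-like growth factor 1, varied least, by 1.02 times around 2.53 CPM.

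The median low gene had 363 to 1204 reads per library. With the genes split by level into 4 equal groups, the median within-gene ratio of highest to lowest library fell from 4.59 in the lowest group through 3.70 and 3.11 to 1.92 in the highest with TMM factors, and from 2.78 through 2.43 and 2.12 to 1.69 with CPM over all windows. At the median of all 501 genes the highest library was 2.09 times the lowest with CPM over all windows rather than 3.45 times. The order of the genes was alike in every library, with a Spearman correlation across the 501 genes of 0.961 to 0.992 between libraries of the same animal and of 0.956 to 0.986 between those of different animals, as a description.

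**Figure D4:**
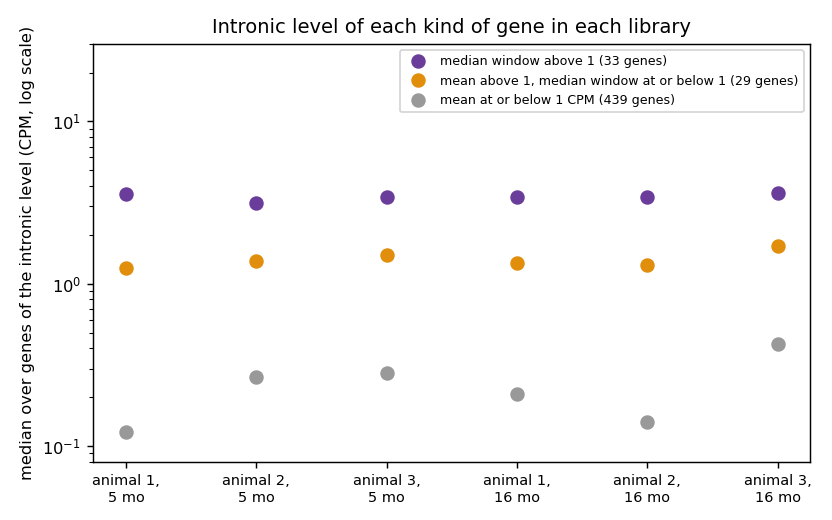
Median over genes of the intronic level (vertical axis, CPM, log scale) in each of the 6 libraries (horizontal axis) for the 33 long genes whose median window was above 1 CPM, the 29 with only the mean above 1 CPM and the 439 low genes. With TMM factors the upper points run from 3.14 to 3.60 CPM and the lowest from 0.121 to 0.424 CPM, whereas with CPM over all windows the upper would run from 2.12 to 3.89 CPM.

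Gene groups were taken from lists of well known long genes and are given as counts, with no test of a group. Among 38 long genes of neuronal adhesion and guidance the median level was 0.238 CPM, against 0.264 CPM over all 501 long genes, with CNTN6 lowest and SDK1 highest. LRRC4C and CADM2, adhesion molecules of synapses and axons and among the longest of the group, stood at 0.127 and 0.105 CPM. The 13 cadherins and catenins had the lowest median of the lists, 0.136 CPM, and 9 of them lay below the overall median. Of these CDH4, which encodes R-cadherin, was highest at 1.43 CPM, and PCDH9, a protocadherin, was at 0.116 CPM.

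The 28 ion channels and transmitter receptors had a median of 0.228 CPM. KCNIP4, a potassium channel interacting protein, was at 0.125 CPM. The 23 genes of receptor phosphatases and intracellular signalling were at 0.277 CPM, with PRKG1 at 0.311 CPM and MAGI2, a scaffold of synaptic junctions, at 0.170 CPM.

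The 11 long matrix and heparan sulphate genes had a median of 0.224 CPM, from GPC5, a glypican, at 0.121 CPM up to ABI3BP. HS6ST3, a heparan sulphate sulphotransferase, had introns at 0.185 CPM although its 3 coding windows were at 3.45 CPM. SPOCK1, a testican, was at 0.308 CPM. The 26 regulators of transcription and RNA had the highest median of the lists, 0.319 CPM, and 9 lay below the overall median. In RBFOX1, a splicing factor, 2 windows held 49.5% of the reads, and PARD3B, a polarity protein, was at 0.226 CPM. The 11 fragile site genes had a median of 0.256 CPM.

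No age difference was detectable in the overall intronic level. The log2 ratio of 5 to 16 months was -0.79 in animal 1, 0.89 in animal 2 and -0.56 in animal 3, on average -0.16 ± 0.91 (SD, n = 3), and the exact two-sided sign-flip test over the animals gave p = 1 where the smallest possible is 0.25. These ratios rest on the TMM factors of the window test, and the levels were not recomputed with those of the gene test. With CPM over all windows the average was -0.13 ± 0.88 (SD, n = 3). In animals 1 and 2 the library with more reads had the higher level, and in animal 3 that with fewer. The part of depth in this was not tested. The relation to shorter genes moved with age to the same side in each animal, since the log2 ratio of long to shorter introns was lower at 5 months by 0.09, 0.11 and 0.10 (exact sign-flip p = 0.25, the smallest possible with 3 animals).

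Summed over the introns of a gene, no long gene was called by age. With edgeR's quasi-likelihood test and the animal as a block, 0 of 501 long genes had an FDR below 0.1, and over all 12611 genes tested the share was 0%. In this fit no long gene reached an unadjusted p under 0.05 either, and edgeR's likelihood-ratio test and DESeq2 also called 0. With library size only, 3 long genes had an edgeR p under 0.05, among 18 of all 12611 genes. With the TMM factors of the window test, a fit added after the data were seen, 4 did, among 19. The log2 fold changes had a median of -0.08, positive being higher at 5 months, and 343 of 501 were negative, against a median of 0.02 over all genes. The median standard error was 0.34, so changes of the size seen were not detectable. The lowest p belonged to ZNF804A, a zinc finger protein of neurons, with 0.0290, 0.102 and 0.103 CPM at 5 months in animals 1 to 3 and 0.0886, 0.0567 and 0.212 CPM at 16 months. It was higher at 16 months in animals 1 and 3 and at 5 months in animal 2, with a log2 fold change of -0.53 and an edgeR p of 0.0845 before adjustment and 1.00 after it. All of the 10 genes with the lowest p, including LPHN3, ROBO2, CHRM3, NOL4 and LRRC7, were genes of low level with negative values between -0.41 and -0.53. Without animal 2, 122 long genes (24.4%) were called, 52 higher at 5 and 70 higher at 16 months, among 1771 (14.0%) called of 12661 genes tested, of which 1575 (12.4% of those tested) were higher at 5 months.

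In single windows, age differences were few. Of the 76655 intronic windows of long genes, 6030 (7.87%) in 412 genes passed the filter of 1 CPM in at least 3 libraries, and 50.7% of these lay in the 33 genes with signal throughout. With edgeR's quasi-likelihood test, at a fold change of 2 or more and an FDR under 0.1, 7 of 6030 (0.116%) were called, against 0.185% of all 104658 windows tested. All 7 were higher at 5 months, where 0.105% of all windows tested were called in that direction, and over all windows 110 of 194 calls had it. The 7 windows belonged to 7 genes, and their fold changes lay between 2.05 and 2.56.

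The window with the lowest FDR was in ZNF423, a zinc finger transcription factor (chr18:18215798-18218797 of UMD v3.1). It held 6.21, 2.62 and 3.72 CPM at 5 months in animals 1 to 3 and 1.48, 1.73 and 1.57 CPM at 16 months. The ages did not overlap, and each animal was higher at 5 months. The log2 fold change was 1.36 ± 0.25 (SE, edgeR FDR = 0.00140). The window that follows had 3.23 CPM at 5 and 3.39 CPM at 16 months, a difference that did not pass the test (edgeR FDR = 1.00).

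In NSG1, a neuronal endosomal protein (chr6:106595782-106598781), the window held 4.41, 2.35 and 2.90 CPM at 5 months and 1.504, 0.594 and 2.23 CPM at 16 months in animals 1 to 3. The ages did not overlap, and animal 3 differed least (log2 fold change 1.24 ± 0.28 SE, edgeR FDR = 0.0225). The windows labelled NSG1 are interrupted by other labels. In PRKCA, protein kinase C alpha (chr19:63452675-63455674), the values were 3.59, 1.66 and 5.28 CPM at 5 months and 1.22, 0.743 and 3.25 CPM at 16 months. Here the ages overlapped, although each animal fell (log2 fold change 1.12 ± 0.26 SE, edgeR FDR = 0.0319). In AFF3, a nuclear factor of lymphoid tissue (chr11:4978585-4981584), they were 3.63, 3.31 and 2.64 CPM and 1.29, 1.24 and 1.78 CPM, with no overlap (log2 fold change 1.17 ± 0.28 SE, edgeR FDR = 0.0319).

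PTPRG, a receptor phosphatase next to FHIT (chr22:39290367-39293366), had 5.75, 1.62 and 4.94 CPM at 5 months and 1.86, 0.991 and 3.20 CPM at 16 months, with overlap (edgeR FDR = 0.0319). WWOX (chr18:5609398-5612397) had 5.15, 3.78 and 1.95 CPM and 1.81, 1.68 and 1.63 CPM, without overlap but with animal 3 differing only 1.20-fold (edgeR FDR = 0.0479). ARHGEF3, a guanine nucleotide exchange factor (chr22:44618667-44621666), had 3.13, 1.49 and 3.08 CPM and 0.716, 0.495 and 2.64 CPM, again with the smallest difference in animal 3, of 1.16-fold (edgeR FDR = 0.0947). In all 7 windows each of the 3 animals was higher at 5 months. The test paired by animal favours such windows, so this agreement is no separate evidence for them.

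Windows of LOC100848036 and PRKAG2 also had an FDR below 0.1 (0.0248 and 0.0388 in edgeR), with fold changes of 1.91 and 1.90, and like the 7 were higher at 5 months. Without the fold threshold 9 of 6030 windows were thus called, against 0.325% of all windows tested. The window ranked 10 by FDR, in the GIMAP7 label, was higher at 16 months in animals 1 and 2 and at 5 months in animal 3 and was not called (edgeR FDR = 0.119). Of the windows adjoining the 7, those that were tested had FDRs of 0.944 or more in edgeR. The 5 highest intronic windows, in ERBB4, ABI3BP, CNTNAP5 and RNF122, had log2 fold changes of -0.17 to 0.41 with none called.

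The 7 calls depended on the animals and on the model. Without animal 1 there were 0 of 6329 (14 of 108693 over all windows tested), and without animal 2 there were 3 of 6715 (68 of 113842). Without animal 3 there were 35 of 5976, of which 23 were higher at 5 months, where 1.24% of all windows tested were called. With no block for the animal there were 0 calls and with DESeq2 0, where 0 and 15 of all 104658 windows tested were called. Of the 6030 windows, 55 and 98 then had an unadjusted p under 0.05, against 321 in the paired quasi-likelihood test. Over all 104658 windows these numbers were 1282, 2271 and 7429, so that the 321 are no sign of age differences particular to these introns.

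**Figure D5:**
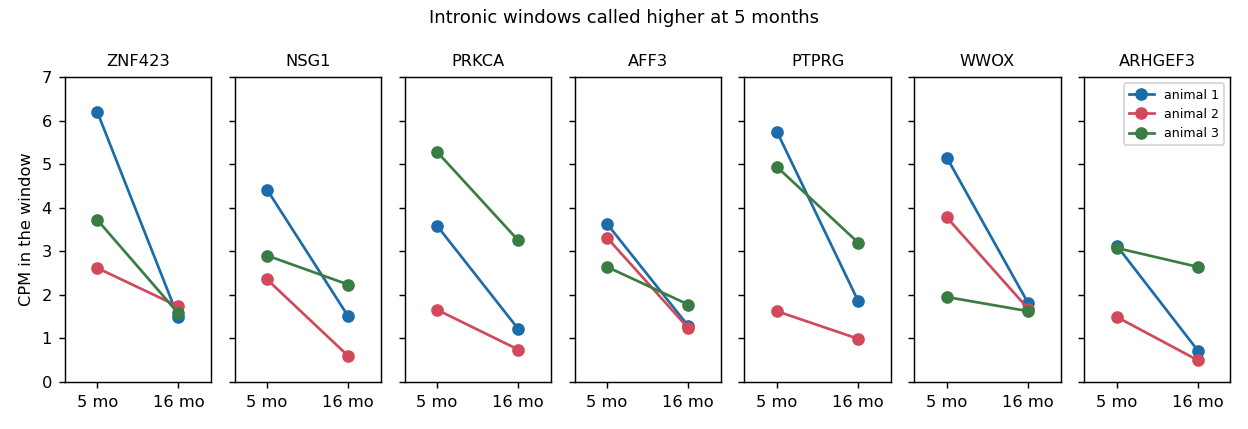
CPM (vertical axis, from 0) of the 7 intronic windows called higher at 5 months, with a line joining the 5-month and 16-month culture of each animal. Every line falls from 5 to 16 months, from at most 6.21 CPM to at most 3.25 CPM, and the lines of animal 3 are the flattest in NSG1, AFF3, WWOX and ARHGEF3.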

How the data were processed

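MIRA-Seq libraries of 6 dermal fibroblast cultures, 3 Holstein heifers at 5 and 16 months, were analysed. The authors trimmed and filtered the reads, mapped the rest with NextGENe 2.3.4 on assembly UMD v3.1 and deposited a read count for each 3 kb window, without normalization. The deposited files also give the highest depth of coverage of each window, an unscaled signal, which was used only for the windows with the most reads. How PCR copies were handled is not stated in the sources at hand, so counts are not independent molecules. Sequence and CpG content were not analysed here, for want of a genome of this build, and all positions and gene labels were taken from the deposited files.

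Counts of all windows, and counts summed over the introns of each labelled gene, were fitted in R 4.3.3 with edgeR 4.0.16 (TMM, animal as a block, quasi-likelihood test, Benjamini-Hochberg adjustment over all features tested). A feature was tested if 3 or more libraries reached 1 CPM. Calls needed an FDR under 0.1 and, for windows, a fold change of 2 or more. The SE of a log2 fold change was taken as its size over the square root of F. Differences between classes of windows within a library were tested with exact sign-flip permutation tests over 6 libraries, which come from 3 animals and are not fully independent, and age differences of levels over 3 animals. The code was tested on simulated data. Tables were made in Python with pandas 2.3.3.

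The pairing comes from the animals, each of which gave a library at both ages. As a check, the deviations of gene levels from the mean of the age had correlations of 0.197 (animal 1), -0.323 (animal 2) and 0.765 (animal 3) between ages. Each animal gave 1 culture per age, so that p-values measure the spread between these cultures.

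The windows, gene lists and tests were chosen with earlier results of these data known. The genes named are the 10 longest, the 5 highest and 5 lowest, the 10 with the lowest p, those of the 10 windows with the lowest FDR and the 5 highest windows, and the 3 longest of each list; a gene that this rule names is not reported here. IGF1R, KCNQ1, HDAC4, TRAPPC9, SDK1, SLIT3 and CDH4 were named after their values were seen. The alternatives were DESeq2 1.42.0 and edgeR's likelihood-ratio test, other scalings, filters, thresholds and summaries, no block, and leaving out each animal.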

Additional observations from a re-analysis of the deposited data

How the results depend on the processing

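The count of 7 intronic windows called was 7 with edgeR's likelihood-ratio test and with DESeq2's size factors in edgeR, and the same 7 windows were called in both. It was 0 with DESeq2, 1 with library size only, 2 at a filter of 0.5 CPM, 0 with no filter and 0 without the replicate block. Over all 104658 windows tested the calls were 15 with DESeq2, 99 with library size only and 0 without the block. They were 96 of 179683 at 0.5 CPM and 2 of 884574 with no filter, so calls also fell over the whole series. Leaving out each animal gave 0 to 35 windows and 0 to 122 long genes, and every other alternative gave 0 long genes, the fit without the block included. With the plain mean over genes, which RNF122 and a few windows decide, the ratio of last to first bin was 0.42, of the middle to the ends 0.061, of introns to coding windows -0.35, to first windows 0.065, to shorter genes -0.20 and to flanks 0.083, and the age difference was 0.022. None of these passed after adjustment, although last to first bin was positive in all 6 libraries (exact sign-flip p = 0.0312, adjusted p = 0.1875). With the median window of a gene they were 0.28, -0.21, -0.62, -0.054 and -0.58, in the same order up to shorter genes, and none passed after adjustment. Leaving out the 1% of windows richest in counts, the ratio to flanks was -0.074, and with genes of at least 150 windows it was -0.12, both past the test, and the ratio of last to first bin was then 0.053 and not past it. Chosen after the data were seen, the mean over genes without that 1% gave -0.15 for first windows, not past the test, and 0.16 for flanks, past it. The upstream flank alone gave 0.16, also past the test, and the other contrasts within libraries passed as before. The ratio to flanks thus passed in opposite directions under different choices. Leaving out an animal leaves 4 libraries, too few for the test to pass, with ranges of 0.14 to 0.20 for last to first bin, -0.33 to -0.27 for the middle, -0.86 to -0.67 for coding windows, 0.63 to 0.87 for first windows, -0.39 to -0.35 for shorter genes, -0.03 to -0.01 for flanks and -0.68 to 0.16 for the age difference, which turned positive without animal 1 (0.16) and without animal 3 (0.047). The cause of these changes was not tested. Restricting the windows to those with a single gene label was not run, because every window carried at most 1 label. A median of 1 to 6 reads per window limits what single windows can show.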
